A study of Mus musculus with 6 samples.

Results

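The genes described here are 44 genes of the cell cycle and DNA replication, chosen by symbol and read in all 6 RNA-seq libraries. All 44 are listed among the 39179 genes of the deposited table, and 43 of them were tested, together with every other gene that reached 0.5 RPKM in 2 or more libraries (14264 genes in all). RPKM is the number of reads of a gene scaled to its length and to the reads of the library, so it can be compared between genes. By role, 5 members were D cyclins and their kinases, 6 were inhibitors of cyclin-dependent kinases (CDKs), 5 belonged to the RB, E2F and MYC group, 14 acted at the start of S phase or in DNA synthesis, and 14 acted in G2 and mitosis.

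The study asked how far inhibition of salt-inducible kinases (SIKs) in osteocytes reproduces gene regulation by parathyroid hormone (PTH). Its cells were Ocy454, a mouse cell line with properties of osteocytes, used as a single-cell subclone, so that all libraries come from 1 clone. Cells of every group grew to confluence at 33 °C and were then held at 37 °C for 14 days. The groups were vehicle, 1 nM PTH 1-34, and 0.5 µM of the small-molecule SIK inhibitor YKL-05-093, each for 4 h and each with 2 libraries. The labels of these libraries name the vehicle as phosphate-buffered saline with hydrochloric acid, whereas the study's methods name DMSO as the solvent of its compounds in vitro, so the solvent that each group received is uncertain. The methods call the 2 libraries of a condition experimental duplicates and do not say whether these were separate cultures, so the p-values measure only the spread between these libraries, which may be technical.

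Cells enter the cycle when D cyclins with CDK4 or CDK6, and then cyclin E with CDK2, phosphorylate the RB protein and release E2F factors, which switch on genes for DNA synthesis. Inhibitors of the INK4 family block CDK4 and CDK6, and inhibitors of the CIP/KIP family, such as p27, bind cyclin–CDK complexes. Genes of G2 and mitosis are switched on later in the cycle, with the help of FOXM1 and B-MYB, and are held down in resting cells by the DREAM complex. Osteocytes in bone are terminally differentiated cells that do not divide.

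These programmes are read from promoter elements, so the promoters of a few members are shown first. Mcm6 and Cdk1 were picked as examples with E2F elements, and Ccnb2, Bub1b, Rrm2 and Cdkn1b from the members that passed a test below. The windows are the 250 bases before the transcription start in RefSeq on GRCm38.p6, and 34 of the 44 members had an entry, with 41 windows. Cdkn1c, Foxm1, Ccnd2, Aurkb, Mcm4, Rb1, Ccne2, Myc, Ccnd1 and Ccna2 had none. Capitals mark exact matches on either strand to 4 kinds of element. The first is an E2F element (TTTCGCGC, TTTGGCGC, TTTCCCGC or TTTGCCGC). The next is the cell cycle homology region or CHR, searched as TTTGAA, which is often found near the start of genes that are expressed late in the cycle. The others are the CCAAT box, which is bound by the factor NF-Y, and the cyclic AMP response element or CRE, either the full TGACGTCA or its short form.
Mcm6 (chr1:128359706-128359955, minus strand): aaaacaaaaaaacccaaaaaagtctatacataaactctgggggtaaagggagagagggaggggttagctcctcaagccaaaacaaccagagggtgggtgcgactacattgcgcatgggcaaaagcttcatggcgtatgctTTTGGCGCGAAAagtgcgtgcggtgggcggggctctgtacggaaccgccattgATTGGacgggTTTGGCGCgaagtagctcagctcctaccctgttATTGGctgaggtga
Cdk1 (chr10:69352913-69353162, minus strand): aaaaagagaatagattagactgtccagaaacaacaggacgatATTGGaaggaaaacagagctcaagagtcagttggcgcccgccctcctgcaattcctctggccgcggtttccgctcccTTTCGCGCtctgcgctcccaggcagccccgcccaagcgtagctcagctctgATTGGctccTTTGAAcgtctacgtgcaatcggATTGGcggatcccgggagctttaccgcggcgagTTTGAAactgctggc
Ccnb2 (chr9:70421555-70421804, minus strand): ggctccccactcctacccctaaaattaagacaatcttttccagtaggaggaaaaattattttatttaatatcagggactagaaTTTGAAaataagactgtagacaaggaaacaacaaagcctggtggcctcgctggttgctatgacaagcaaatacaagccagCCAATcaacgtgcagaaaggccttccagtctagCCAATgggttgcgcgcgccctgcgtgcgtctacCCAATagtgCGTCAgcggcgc
Bub1b (chr2:118597961-118598210, plus strand): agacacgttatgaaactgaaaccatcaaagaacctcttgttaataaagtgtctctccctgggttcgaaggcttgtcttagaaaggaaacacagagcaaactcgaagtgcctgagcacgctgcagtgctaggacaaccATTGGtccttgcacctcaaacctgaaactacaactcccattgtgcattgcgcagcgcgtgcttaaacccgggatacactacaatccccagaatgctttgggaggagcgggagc
Rrm2 (chr12:24708004-24708253, plus strand): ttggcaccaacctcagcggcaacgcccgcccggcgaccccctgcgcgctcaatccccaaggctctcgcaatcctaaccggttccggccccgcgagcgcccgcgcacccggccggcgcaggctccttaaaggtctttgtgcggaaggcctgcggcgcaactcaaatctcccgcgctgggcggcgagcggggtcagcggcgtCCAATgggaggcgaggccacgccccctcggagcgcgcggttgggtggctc
Cdkn1b (chr6:134920151-134920400, plus strand): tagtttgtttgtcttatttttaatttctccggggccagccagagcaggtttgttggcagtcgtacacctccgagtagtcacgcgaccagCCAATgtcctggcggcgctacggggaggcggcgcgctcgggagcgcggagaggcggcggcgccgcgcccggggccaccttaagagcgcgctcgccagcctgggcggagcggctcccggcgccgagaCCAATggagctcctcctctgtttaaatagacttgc

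The window of Mcm6, a subunit of the replicative helicase, held 3 E2F matches, of which those at 110 and 106 bases before the start overlap on opposite strands. The window of Cdk1, the kinase of mitotic entry, held 1 E2F and 2 CHR matches. That of the mitotic cyclin Ccnb2 held 1 CHR match, 3 CCAAT boxes and 1 short CRE. The windows of Bub1b and Rrm2 held 1 CCAAT box each and that of Cdkn1b held 2, with no E2F or CHR match. Of the windows of G1/S and S phase members, 46.2% held an E2F match (6 of 13) and 7.69% a CHR match, compared with 9.09% and 45.5% (5 of 11) for G2 and mitosis members. Over all 32851 promoter windows of RefSeq these shares were 1.86% for E2F, 16% for CHR and 33.8% for CCAAT, the last being found in 90.9% of windows of G2 and mitosis members and 76.9% of windows of G1/S and S phase members. The full CRE was found in 2 member windows (4.88%, against 1.55% of all promoters), those of Mcm5 and Cdkn2b, and the short form TGACG, which lies inside the full one, in 26.8% against 17.8%. The windows of Ccne1 and Cdkn1a, which also passed below, held no match, and that of Cdk6 held 1 short CRE. A match describes these letters only, and no binding was measured.

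Totals of 17505798 to 27983585 reads lay behind the libraries, and the tested members had between 74 and 31723 reads per library. PTH targets followed the labels, as for Vdr, the vitamin D receptor. It was at 3.31 to 4.41 RPKM in vehicle, 56.9 to 59.6 RPKM with PTH and 54.7 to 54.9 RPKM with YKL-05-093. Of the defining osteocyte markers, Sost, Mepe and Fgf23 were at or near 0 in every library (at most 0.136 RPKM), Dmp1 was at 0.376 to 1.16 RPKM and Phex at 0.764 to 4.93 RPKM. The osteocyte list consisted mostly of Pdpn. It summed to 55.7 and 73.3 RPKM in vehicle, 176 and 165 RPKM with PTH and 99.1 and 98.4 RPKM with YKL-05-093. Osteoblast genes were abundant (396 to 556 RPKM summed over 5 genes). Cdh5 and Myod1, which mark endothelium and muscle, were at 0 in all 6 libraries, and Ptprc, the pan-leukocyte marker, was at most at 0.026 RPKM. Summed lists of muscle, endothelial, chondrocyte and adipocyte markers reached at most 0.282, 1.79, 3.38 and 3.83 RPKM in any library, and the macrophage and osteoclast list, at 74.2 to 94.9 RPKM, was almost wholly Ctsk. The part of these differences in the results below was not tested.

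The cells carried abundant transcripts of the proliferation machinery in all 3 conditions. The median member had a mean level of 30.7 RPKM over the 6 libraries, compared with 6.68 RPKM for the median tested gene. Mcm6, Pcna (the sliding clamp of DNA polymerase) and Top2a (topoisomerase II, which untangles chromosomes) had mean levels of 204, 155 and 132 RPKM. In the vehicle libraries Cdk1 was at 63.2 and 77.5 RPKM and Ccnb2 at 126 and 139 RPKM. In bulk RNA, a smaller share of cycling cells and less RNA per cycling cell cannot be told apart, and neither was measured.

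The other members of the late roles are given here by their levels. The helicase subunits Mcm2, Mcm3, Mcm4, Mcm5 and Mcm7 ranged from 45.3 RPKM (Mcm7) to 122 RPKM (Mcm5) over all libraries, and Mcm2 was at 74.1 and 59.5 RPKM in vehicle, 63.0 and 62.97 RPKM with PTH and 60.2 and 63.5 RPKM with YKL-05-093. Pcna was at 135 and 166 RPKM, 167 and 163 RPKM, and 149 and 150 RPKM in the same order. The groups of both genes overlapped vehicle. Cdk2 lay between 51.8 and 56.2 RPKM, Ccne2, a second cyclin E, between 27.8 and 34.8 RPKM, and Tyms, which makes thymidylate, between 18.9 and 25.7 RPKM. The licensing factor Cdc6 and the phosphatase Cdc25a were lower, at 10.04 to 12.2 RPKM and 7.66 to 10.8 RPKM. Among the mitotic members, the kinases Aurka and Aurkb stood at 26.5 to 29.3 and 40.5 to 46.4 RPKM, the anaphase activator Cdc20 at 66.4 to 84.0 RPKM, survivin (Birc5) at 32.5 to 42.6 RPKM, and the cyclins Ccna2 and Ccnb1 at 57.8 to 73.3 and 12.7 to 16.1 RPKM.

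**Figure D1:**
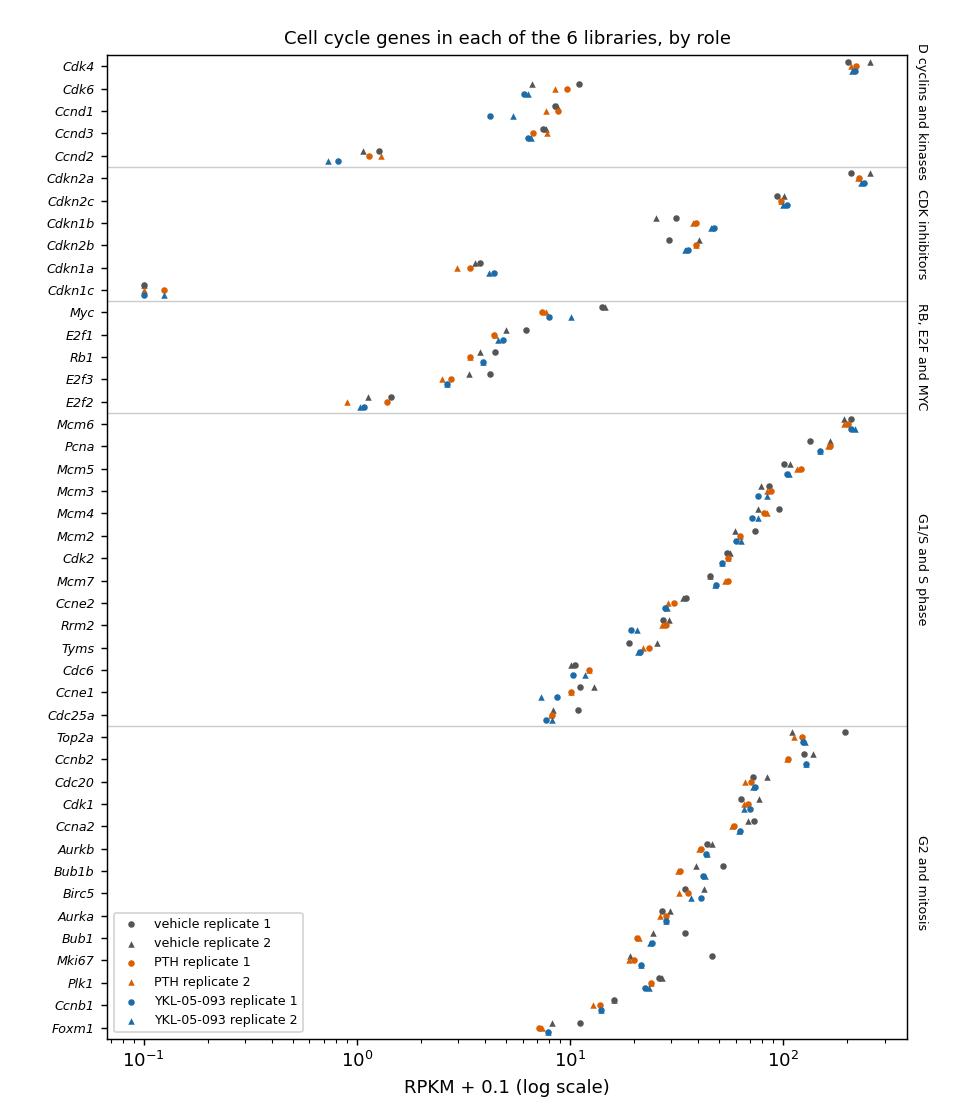
RPKM + 0.1 on a log axis for the 44 members in each of the 6 libraries, ordered by role and by mean level; circles are replicate 1 and triangles replicate 2 of vehicle (grey), PTH (orange) and YKL-05-093 (blue). Levels run from Cdkn1c, at 1 read or none in each library, to Cdkn2a, Cdk4 and Mcm6 above 190 RPKM in every library, and the conditions lie close together for most members.

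Of the kinase inhibitors, Cdkn2a and Cdkn2c also stood near the top of the range. Cdkn2a, whose locus encodes p16 and ARF, was at 209 and 257 RPKM in vehicle, 228 and 226 RPKM with PTH and 241 and 232 RPKM with YKL-05-093. Cdkn2c, which encodes the INK4 protein p18, ranged from 93.3 to 104 RPKM and Cdkn2b, encoding p15, from 29.0 to 40.5 RPKM. The groups overlapped against vehicle for each of these INK4 genes. Cdkn1a, which encodes p21, was far lower, at 2.86 to 4.33 RPKM, and Cdkn1c, encoding p57, was listed at 0 in 4 libraries and had 1 read in the other 2, under the floor of 3 reads. Cdkn1c therefore failed the filter, and a change in it was not detectable at this depth.

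Among the D cyclins and kinases, Cdk4 was the most abundant, at 203 and 257 RPKM in vehicle, 220 and 208 RPKM with PTH and 217 and 211 RPKM with YKL-05-093. Cdk6, the other kinase of D cyclins, ranged from 5.99 to 10.9 RPKM. Ccnd3 was at 7.40 and 7.64 RPKM in vehicle, 6.59 and 7.73 RPKM with PTH, and 6.24 and 6.46 RPKM with YKL-05-093, and only the inhibitor libraries lay clear of vehicle. Over all libraries, Ccnd1 and Ccnd3 had mean levels of 7.12 and 7.01 RPKM, and Ccnd2 was the lowest, at 0.956 RPKM. Ccnd1 lay above Ccnd3 in vehicle (8.40 and 8.58 RPKM) and below it with YKL-05-093 (4.14 and 5.29 RPKM). With PTH their libraries overlapped. The sources used here do not say whether reads were counted by strand. Exons of 14 of the 44 members overlap exons of a gene on the other strand, among them Ccnd1, Ccnd2, Cdk6 and Cdkn1a, and for these genes reads of both strands may have been counted together.

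The vehicle libraries differed from each other more than the treated ones did. The median absolute log2 difference between replicates over all tested genes was 0.33 in vehicle, 0.11 with PTH and 0.10 with YKL-05-093; over the 43 members it was 0.24, 0.05 and 0.04. The vehicle difference moved with gene length. Vehicle replicate 1 was below replicate 2 by a median of −0.30 on the log2(RPKM + 0.1) scale for all genes under 2 kb, and above it by 0.59 for genes of 8 kb or longer. Across the 43 members, which share these 2 libraries, Spearman's rho of the difference with length was 0.59, against 0.53 across all tested genes. The part of length in the results against vehicle was tested only by removing its trend, as given at the end.

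Mki67, the gene of the proliferation antigen Ki-67 and the longest member, had the widest gap between the vehicle libraries. It was at 46.3 and 19.1 RPKM in vehicle, 19.9 and 18.8 RPKM with PTH, and 21.6 and 21.5 RPKM with YKL-05-093. A single vehicle library was high, and the other lay within the range of the treated libraries. Top2a was at 196 and 111 RPKM in vehicle, 123 and 113 RPKM with PTH and 125 and 126 RPKM with YKL-05-093, so its vehicle libraries lay on either side of all 4 treated ones. Neither passed against vehicle. The limma adjusted p was 0.579 for Mki67 and 0.729 for Top2a after PTH, with 0.839 and 0.893 after YKL-05-093. With vehicle replicate 2 left out, both passed in both comparisons as lower than vehicle, and with vehicle replicate 1 left out neither did. The log2 fold change of Mki67 after PTH was −0.62 ± 0.37 (SE) with all libraries, −1.25 without vehicle replicate 2 and 0.02 without vehicle replicate 1.

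**Figure D2:**
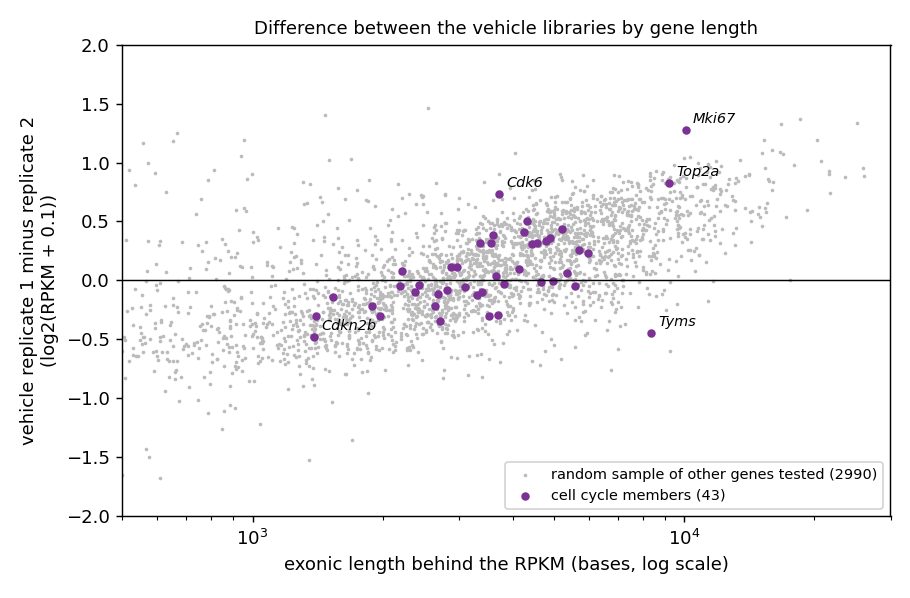
Difference between the vehicle libraries (replicate 1 minus replicate 2, log2(RPKM + 0.1)) against the exonic length behind the RPKM on a log axis; purple points are the 43 tested members and grey points a random sample of the other tested genes; points past the ends of either axis are not drawn. The difference runs from a median of −0.30 under 2 kb to 0.59 at 8 kb or longer over all tested genes, and Mki67 and Top2a lie at the upper right.

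Comparing PTH with vehicle asks whether the hormone moved these genes within 4 h. Myc, the transcription factor that promotes cell growth and entry into the cycle, fell after PTH and was the only member to pass. At chr15:61985391-61990374 on GRCm38, it was at 14.0 and 14.5 RPKM in vehicle, 7.27 and 7.61 RPKM with PTH, and 7.90 and 10.1 RPKM with YKL-05-093. All 4 treated libraries lay below both vehicle libraries, without overlap. PTH changed Myc by −0.93 ± 0.15 (log2 fold change and SE, n = 2 libraries against 2, limma adjusted p = 0.0278), a fall of 1.91-fold. The change stood at −0.67 ± 0.18 with YKL-05-093 (adjusted p = 0.240 in limma), which did not pass, and the difference in Myc between the treatments did not pass either (adjusted p = 0.151 in limma, log2 difference −0.26, 95% interval −0.48 to −0.04). Over 14 alternative settings, the adjusted p of limma for Myc after PTH lay between 0.00171 and 0.822, and it passed in 10 of them. It was lost with either PTH library left out, where no gene in the table was called, without the filter on low values and with the trend of the spread on the mean value.

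For PTH, then, 1 of 43 members passed at an adjusted p under 0.05 (2.33%), against 2.19% of all tested genes, of which 1.26% were higher and 0.94% lower. At a change of more than 2-fold as well, 0 members were called by limma, against 1.91% of all genes. At an unadjusted p under 0.05 there were 4 members, Myc, E2f3, Cdkn1b and Bub1b, against 13.3% of all genes. The largest changes without overlap after Myc were those of E2f3, an E2F activator (4.14 and 3.26 RPKM in vehicle, 2.67 and 2.41 RPKM with PTH), and of the spindle checkpoint kinase genes Bub1 (34.6 and 24.4 against 20.6 and 20.95 RPKM) and Bub1b (52.2 and 39.1 against 32.8 and 32.1 RPKM). Their log2 fold changes were −0.52 ± 0.18, −0.48 ± 0.21 and −0.48 ± 0.20 (SE), with limma adjusted p of 0.271, 0.379 and 0.354. In each of these genes vehicle replicate 1 was the higher vehicle library. The same held for Foxm1, the factor that drives mitotic genes, at 11.03 and 8.12 RPKM in vehicle and 7.09 and 7.29 RPKM with PTH (log2 fold change −0.39 ± 0.19 SE, limma adjusted p = 0.450).

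By count, 17 members lay below vehicle in both PTH libraries without overlap (39.5%, against 24% of all genes) and 4 lay above (9.3%, against 19.1%). Of the 14 members of G2 and mitosis, 9 lay below and 0 above, and their median log2 fold change was −0.28. The 14 members of G1/S and S phase were split, with 3 below and 3 above (Mcm5, Mcm7 and the licensing factor Cdc6) and a median of −0.01. The median was −0.09 over all members and −0.03 over all tested genes. Medians of the roles rest on 2 libraries a group and were not tested.

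The intervals bound the size of the changes. For 40 of the 43 members (93.0%), the 95% interval of the log2 fold change lay within 2-fold either way, compared with 76.1% of all tested genes. Every D cyclin and kinase was among them, Ccnd1 with −0.06 (95% interval −0.43 to 0.32) and Cdk6 with 0.09 (−0.50 to 0.67). Pcna and Mcm2, common marks of cells in S phase, changed by 0.14 (−0.30 to 0.58) and −0.08 (−0.51 to 0.36) on the log2 scale. Smaller changes than these intervals allow were not detectable.

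The comparison of YKL-05-093 with vehicle asks the same of the SIK inhibitor. No member passed (0 of 43 by limma, against 0.666% of all tested genes, with 0.393% higher and 0.274% lower), and the number at an unadjusted p under 0.05 was 7, against 8.67% of all genes. These 7 were Ccnd1, Ccnd2, Cdkn1b, Myc, E2f3, Ccne1 and Rrm2. By role, 2 were D cyclins, 1 was a CDK inhibitor, 2 were of the RB, E2F and MYC group, and 2 of G1/S and S phase. None belonged to G2 and mitosis. The direction of each is given by its values below, since none passed after adjustment.

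Ccnd1, the cyclin D1 gene at chr7:144929931-144939925, was at 8.40 and 8.58 RPKM in vehicle, 8.68 and 7.65 RPKM with PTH, and 4.14 and 5.29 RPKM with YKL-05-093. Both inhibitor libraries lay below the other 4. Its log2 fold change with YKL-05-093 was −0.85 ± 0.18 (SE, n = 2 against 2, limma adjusted p = 0.122), with a 95% interval from −1.26 to −0.43. The adjusted p from limma lay between 0.0287 and 1 over 14 alternatives and passed in 3, among them 1 fit of all 6 libraries (0.0357).

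Cdkn1b, the gene of the CDK inhibitor p27 at chr6:134920401-134925513, was higher in the treated libraries. It was at 31.4 and 25.2 RPKM in vehicle, 39.1 and 37.9 RPKM with PTH, and 47.3 and 46.1 RPKM with YKL-05-093, with no overlap between any of the 3 groups. The log2 fold change was 0.73 ± 0.18 with YKL-05-093 (SE, adjusted p = 0.208 in limma) and 0.45 ± 0.18 with PTH (adjusted p = 0.346 in limma). Its adjusted p lay between 0.00852 and 1 over the alternatives for YKL-05-093 and between 0.0238 and 1 for PTH, with 3 of 14 passing in each.

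Cyclin E1 and ribonucleotide reductase were lower than vehicle in the values with the inhibitor. Ccne1, the cyclin partner of CDK2, was at 11.1 and 12.9 RPKM in vehicle, 10.003 and 10.03 RPKM with PTH, and 8.61 and 7.22 RPKM with YKL-05-093, a log2 fold change of −0.59 ± 0.18 for the inhibitor (SE, limma adjusted p = 0.324). Rrm2, the small subunit of the enzyme that makes deoxyribonucleotides, was at 27.1 and 29.1 RPKM in vehicle, 28.2 and 27.0 RPKM with PTH, and 19.3 and 20.6 RPKM with YKL-05-093, a log2 fold change of −0.49 ± 0.16 (SE, limma adjusted p = 0.372). In both genes the inhibitor libraries lay below all others. Ccnd2 was at 1.17 and 0.966 RPKM in vehicle, 1.05 and 1.20 RPKM with PTH, and 0.718 and 0.635 RPKM with the inhibitor, and E2f3 at 2.55 and 2.56 RPKM with the inhibitor. Their log2 fold changes with YKL-05-093 were −0.59 ± 0.20 and −0.51 ± 0.18 (SE, limma adjusted p = 0.429 and 0.450).

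Of the 5 D cyclins and kinases, 4 lay below vehicle without overlap in the inhibitor libraries, Cdk4 being the exception, with a median log2 fold change of −0.46. Over all members 19 lay below (44.2%, against 22.1% of all genes) and 4 above (9.3%, against 15.7%), namely Cdkn1a, Cdkn1b, Mcm6 and Mcm7. The median was −0.09 over members and −0.04 over all tested genes. The 95% interval stayed within 2-fold for 36 members (83.7%, against 78% of all genes). It did not for Ccnd1, Ccnd2, Cdk6, Cdkn1b, Myc, Ccne1 and Mki67.

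Set directly against each other, the treatments differed in 9 members, without use of the vehicle libraries. This is 20.9% of the 43, against 9.97% of all tested genes, and none differed by more than 2-fold (0 by limma, against 1.21% of all genes). At an unadjusted p under 0.05 the number was 17, against 22.3% of all genes. The 9 were genes of entry into S phase, higher with PTH, and CDK inhibitor and mitotic genes, lower with PTH than with YKL-05-093. The 95% interval of the difference stayed within 2-fold for 41 members (95.3%, against 85% of all genes), Ccnd1 and Ccnd2 being the exceptions. The median SE was smaller for members (0.07) than for all tested genes (0.09), and its part in these shares was not tested.

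The 5 members higher with PTH (4.85% of all genes were) were Ccnd1, Ccnd2, Cdk6, Rrm2 and Ccne1. Ccnd1 was higher by 0.79 ± 0.11 on the log2(RPKM + 0.1) scale (SE, n = 2 against 2, limma adjusted p = 0.000136), or 1.72-fold, and Ccnd2 by 0.65 ± 0.16 (limma adjusted p = 0.0161). Cdk6 was at 10.9 and 6.54 RPKM in vehicle, 9.60 and 8.43 RPKM with PTH and 5.99 and 6.24 RPKM with YKL-05-093. Its vehicle libraries lay on either side of both PTH libraries and above both YKL-05-093 libraries. The treatments differed by 0.55 ± 0.09 (SE, limma adjusted p = 0.000538). The differences were 0.47 ± 0.07 for Rrm2 and 0.34 ± 0.10 for Ccne1 (SE, limma adjusted p = 0.000336 and 0.0345).

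The 4 members lower with PTH than with the inhibitor (5.11% of all genes were) were the CDK inhibitor genes Cdkn1a and Cdkn1b and the mitotic genes Bub1b and Ccnb2. Cdkn1b differed by −0.28 ± 0.06 (SE, limma adjusted p = 0.00991). Cdkn1a was at 3.71 and 3.50 RPKM in vehicle, 3.30 and 2.86 RPKM with PTH and 4.33 and 4.08 RPKM with YKL-05-093, a difference of −0.44 ± 0.14 (SE, limma adjusted p = 0.0499), which lies at the threshold. With PTH the p21 gene was lowest and with the inhibitor highest, and the groups did not overlap.

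Bub1b, encoding the checkpoint protein BubR1, was at 41.9 and 43.2 RPKM with YKL-05-093, against 32.8 and 32.1 RPKM with PTH, a log2 difference of −0.39 ± 0.06 (SE, limma adjusted p = 0.000665). Ccnb2 was at 129 and 128 RPKM with the inhibitor and 106 and 104 RPKM with PTH, a difference of −0.29 ± 0.06 (SE, limma adjusted p = 0.00762). For both genes the inhibitor libraries lay within the vehicle range, and the PTH libraries lay below it. In the sequences above, the promoter of Ccnb2 held a CHR match, 3 CCAAT boxes and a short CRE, and that of Bub1b 1 CCAAT box alone.

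**Figure D3:**
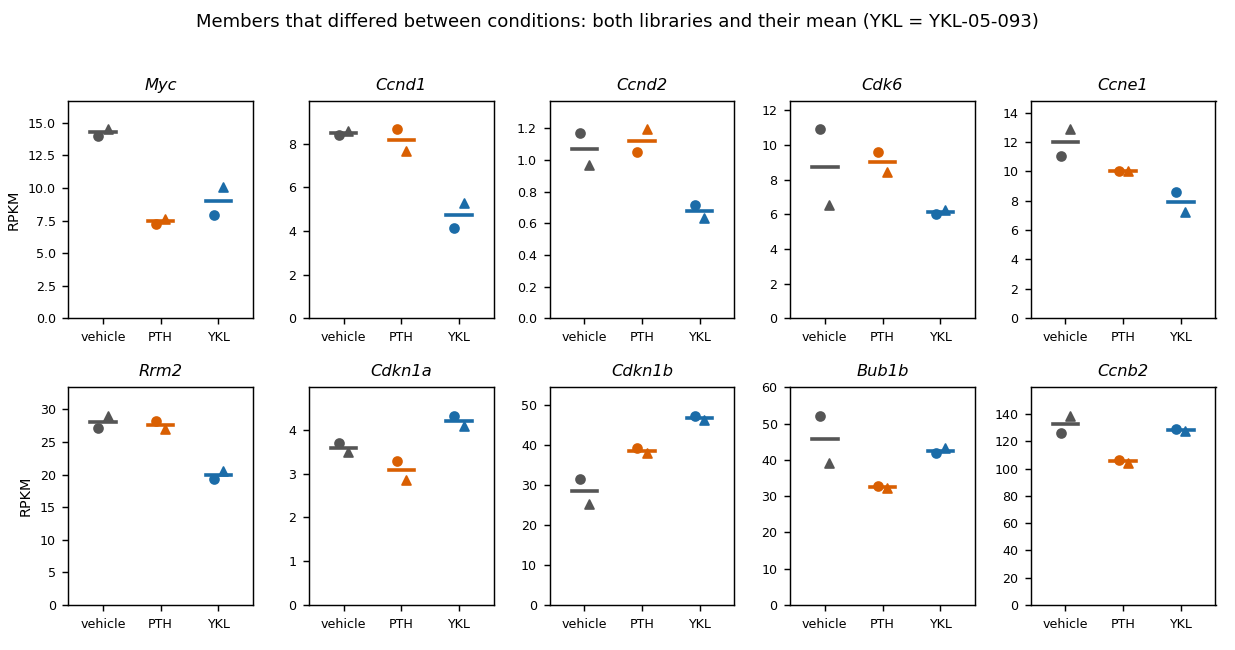
RPKM of the 10 members that passed in any comparison, in each library (circle replicate 1, triangle replicate 2) with the mean of the group as a bar, for vehicle, PTH and YKL-05-093. By group mean, Myc is lower than vehicle with both treatments, but only the change with PTH passed. By the same means, Ccnd1, Ccnd2, Rrm2 and Ccne1 are lowest with YKL-05-093, Cdkn1b is highest with it, and Bub1b and Ccnb2 are lowest with PTH.

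Over whole roles, most members lay on the same side as those that passed, by small differences. Of the 14 G1/S and S phase members, 11 were higher in both PTH libraries than in both YKL-05-093 libraries, against 26.3% of all genes, and 1 was lower, Mcm6 (202 and 193 against 209 and 219 RPKM). Of the 14 G2 and mitosis members, 11 were lower with PTH, against 23.7% of all genes, and 1 was higher, the kinase gene Plk1 (24.0 and 23.9 against 22.4 and 23.4 RPKM). The median log2 difference was 0.13 for the first role and −0.10 for the second, compared with 0.01 over all tested genes. Summed over the 14 genes, G2 and mitosis transcripts stood at 650 and 623 RPKM with PTH and 705 and 696 RPKM with YKL-05-093, and at 822 and 732 RPKM in vehicle. G1/S and S phase transcripts summed to 945 and 920 RPKM with PTH and 865 and 897 RPKM with YKL-05-093, with 912 and 903 RPKM in vehicle. The members share libraries and are not independent of each other.

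**Figure D4:**
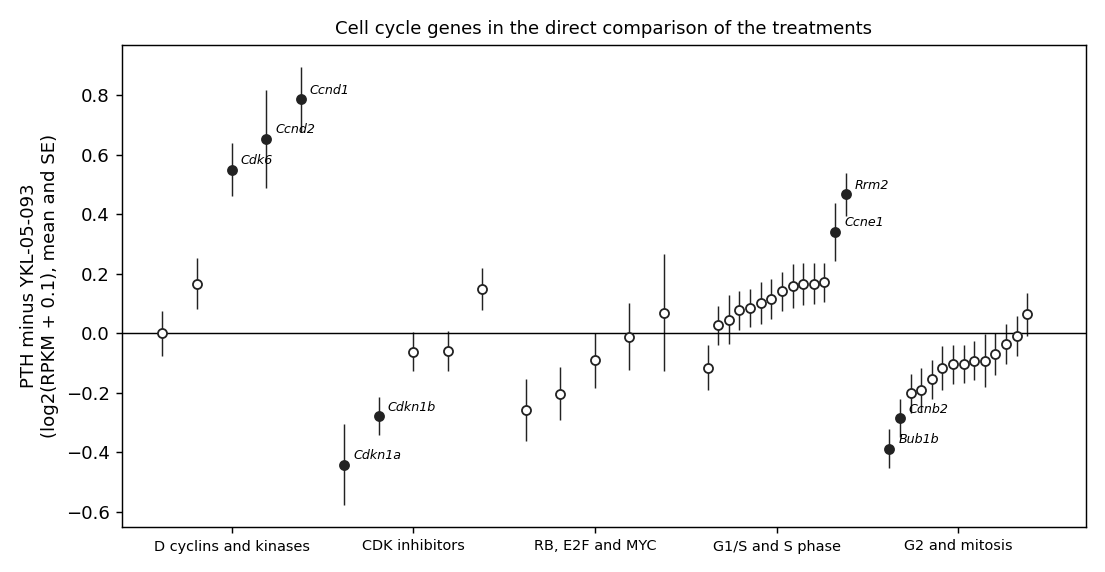
PTH minus YKL-05-093 on the log2(RPKM + 0.1) scale with its SE for the 43 tested members, sorted within each role; filled points with names passed at an adjusted p under 0.05. Most members of G1/S and S phase lie above 0 and most of G2 and mitosis below it, with Ccnd1 highest at 0.79 and Cdkn1a lowest at −0.44.

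The direct comparison rests on the small spread of its 4 libraries. In 1 fit of all 6 libraries, which adds the wider spread of vehicle, none of the 9 passed (limma adjusted p of 0.0713 for Ccnd1, 0.187 for Rrm2 and 0.206 to 0.707 for the other 7). With any 1 of the 4 libraries left out, none passed either, and no gene of the whole table was called. The sign of each of the 9 differences was the same in all 14 alternatives.

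No gene of the RB, E2F and MYC group passed between the treatments (0 of 5 by limma, against 9.97% of all genes, and 2 at an unadjusted p under 0.05, against 22.3%). Rb1 was at 4.35 and 3.68 RPKM in vehicle, 3.31 and 3.30 RPKM with PTH, and 3.81 and 3.83 RPKM with YKL-05-093. E2f1, the best known activator of S phase genes, was at 6.11 and 4.91 RPKM in vehicle, 4.32 and 4.37 RPKM with PTH, and 4.76 and 4.52 RPKM with the inhibitor. Of the 5 genes of this group, 4 lay below vehicle without overlap with PTH (24% of all genes did) and 4 with YKL-05-093 (22.1% of all genes), and only Myc with PTH passed.

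A wider list of 108 cell cycle genes that are not members was read in the same fits, and 106 of them passed the filter. In all 2 passed for PTH against vehicle (1.89%), 0 for YKL-05-093 by limma (7 at an unadjusted p under 0.05) and 12 between the treatments (11.3%), against the 2.19%, 0.666% and 9.97% of all genes. Among its 30 genes of DNA replication, such as the origin factors Cdt1 and Cdc45, none passed in any comparison (0 by limma). At an unadjusted p under 0.05 there were 0 for PTH, 0 for YKL-05-093 and 6 between the treatments, against 13.3%, 8.67% and 22.3% of all genes. Without overlap, 14 of these 30 were higher with PTH than with the inhibitor (46.7%, against 26.3% of all genes). Another 4 were lower (13.3%, against 23.7%), and the median was 0.05, against 0.01 over all genes. The 37 mitotic genes of the wider list gave 0 passes against vehicle for either treatment (4 and 0 at an unadjusted p under 0.05). Between the treatments 4 passed, all lower with PTH. These were Anln, Kif23, Racgap1 and Hmmr, of which the first 3 serve cytokinesis, with log2 differences of −0.34, −0.27, −0.21 and −0.27. Without overlap, 22 of the 37 were lower with PTH than with the inhibitor and 1 was higher, against 23.7% and 26.3% of all genes, and the median was −0.11, against 0.01 over all genes. In the RB family and DREAM list, E2f6, a repressor E2F, was the only gene of 14 to pass, between the treatments (−0.32, limma adjusted p = 0.0238). None of 7 other G1 regulators passed in any comparison (0 by limma, with 1, 1 and 0 at an unadjusted p under 0.05).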

How the data were processed

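Directional libraries were made from Ocy454 RNA after removal of ribosomal RNA. The authors used STAR (mm10/GRCm38) for mapping and HTSeq with an Ensembl annotation for counting. They deposited RPKM values on a linear scale, scaled to the total reads of each library and not further between libraries. The submitters' processing notes also name CASAVA 1.7. Reads were worked back from the RPKM, which came out as whole reads (to within 0.001) for all 26214 genes above 0; the lengths were fitted to that end, so this does not check them. Levels at or below 3 reads were treated as not detectable, which is 0.0536 to 0.0857 RPKM for 2000 bases. This floor covers counting error only.

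Tests used limma 3.58.1 (R 4.3.3). The values were log2(RPKM + 0.1), and the genes those that reached 0.5 RPKM in 2 or more of the 6 libraries. The prior variance followed a trend on the mean log2 number of reads. Each comparison had its own fit of 4 libraries, and p-values were adjusted by Benjamini-Hochberg over all tested genes (14261, 14255 and 14255). A gene passed at an adjusted p under 0.05, and was called at more than 2-fold as well. Fold changes on this scale understate those of low genes. An exact permutation test of 2 against 2 cannot go below p = 0.333 (two-sided) and was not used. The fits were tested on simulated data in which all libraries had the same spread. The wider spread of vehicle and its trend with length were left out, so this does not check the comparisons against vehicle. The members, roles, gene lists and tests were chosen with earlier results of these data known. Named were members that passed, the 6 largest changes without overlap in each comparison among members with a mean of at least 50 reads, G1 regulators and usual proliferation marks, and genes of the wider list that were called. Positions came from GENCODE M21. The genes of the wider list named beside their counts were chosen after their values were seen. Alternatives covered the pseudocount, filter, fold limit, scaling, model of the spread, libraries fitted, replicate block and, added after seeing the data, removal of the trend with gene length. RT-qPCR, protein and animal data were not analysed here.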

Additional observations from a re-analysis of the deposited data

How the results depend on the processing

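The count of members called at more than 2-fold was 0 in each comparison. Without the fold limit it was 1 for PTH against vehicle and 9 for PTH against YKL-05-093. With 1 library left out it ranged from 0 to 1 for either treatment against vehicle, the 1 being Mki67 without vehicle replicate 2. In that setting 13 members passed for PTH and 7 for YKL-05-093, and without vehicle replicate 1 these were 2 (Cdkn1b and Myc) and 0. An arm left with 1 library was assumed to vary like the other. Of the wider list, 2 genes were called for PTH against vehicle. This became 1 (Gadd45a) with a pseudocount of 0.01, a filter of 0.1 RPKM, the trend on the mean value or centred libraries, 0 without the filter, and 0 to 4 with 1 library left out. The list had 0 calls for YKL-05-093, and 1 (Gadd45a) in 1 fit of all 6 libraries, with the replicate block and with the length trend removed, and 0 to 1 with 1 library left out. Between the treatments it had 1 call, 12 without the fold limit and 0 with any library left out. The causes were not tested.

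Over all genes, calls for PTH, YKL-05-093 and PTH against YKL-05-093 were 272, 95 and 172, and became 0, 0 and 149 without the filter, 160, 6 and 137 with the trend on the mean value, 334, 173 and 102 in 1 fit, and 440, 215 and 196 with the replicate block. With a pseudocount of 1 RPKM they were 212, 55 and 98, and 57 for YKL-05-093 with a filter of 0.1 RPKM. With the length trend removed, 174 were called for YKL-05-093. With 1 library left out they ranged from 0 to 672, 0 to 315 and 0 to 0. Across genes, same-numbered libraries did not deviate together (correlations of −0.03, −0.05 and −0.05). The mitochondrial share of reads, however, was higher in replicate 2 of each group. It was 11.7 and 15.0% in vehicle, 13.7 and 16.5% with PTH, and 13.2 and 15.9% with YKL-05-093. The main fits did not take the numbers as pairs, and these values do not settle whether they were. With the replicate block, Ccnd1 passed for YKL-05-093 (adjusted p = 0.0344 in limma), and the members that passed in the other comparisons were the same. With the length trend removed, Ccnd1, Cdkn1b and Rrm2 passed for YKL-05-093 and Cdkn1b and Myc for PTH. No member changed sign under an alternative in the comparison in which it passed. Values that did not pass did so, such as those of Ccnd1, Ccnd2 and Cdk6 for PTH against vehicle.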

Other observations

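In the wider list, the genes called were Gadd45a and Gadd45g, both listed under the p53 response. They changed in opposite directions with PTH, and p53 activity was not measured. Gadd45a, a stress-induced growth arrest gene, was at 1.51 and 1.72 RPKM in vehicle, 8.498 and 7.83 RPKM with PTH, and 3.21 and 3.62 RPKM with YKL-05-093. It rose with PTH by 2.27 ± 0.18 (log2 fold change and SE, n = 2 against 2, limma adjusted p = 0.00166), and with YKL-05-093 the log2 fold change was 1.03 ± 0.20 (limma adjusted p = 0.0967). The treatments differed by 1.23 ± 0.12. Its relative Gadd45g fell with PTH by 1.13 on the log2 scale (limma adjusted p = 0.0442), from 27.5 and 39.2 RPKM in vehicle to 16.2 and 13.8 RPKM, with 23.1 and 24.0 RPKM in the inhibitor libraries. Of the 11 genes of this list, 2 passed for PTH (18.2%, against 2.19% of all tested genes), 0 for YKL-05-093 by limma (against 0.666%; 3 at an unadjusted p under 0.05, against 8.67%) and 5 between the treatments (45.5%, against 9.97%). These 5 were Gadd45a, Gadd45b, Gadd45g, Sesn1 and Plk3, of which 2 were higher and 3 lower with PTH than with YKL-05-093. Sesn1, a sestrin gene, was at 24.6 and 21.7 RPKM with PTH and 44.3 and 46.4 RPKM with YKL-05-093. These values set the treatments against each other only, not against vehicle. Mdm2, a standard p53 target, was at 11.04 to 12.5 RPKM in all 6 libraries.

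Genes of the MYC network numbered 9, of which Mycn and Mycl failed the filter. None of the other 7 passed against vehicle by limma, where 2.19% of all genes passed for PTH and 0.666% for YKL-05-093. At an unadjusted p under 0.05 there were 1 for PTH and 2 for YKL-05-093, against 13.3% and 8.67% of all genes. Between the treatments 2 passed (28.6%, against 9.97% of all genes). Mnt and Mxi1, which encode MAX-binding antagonists of MYC, were lower with PTH, by −0.48 ± 0.11 and −0.22 ± 0.07 on the log2 scale (SE, limma adjusted p = 0.00739 and 0.0490). Mxi1 was at 13.4 and 11.9 RPKM in vehicle, 17.6 and 17.4 RPKM with PTH, and 19.6 and 21.4 RPKM with YKL-05-093, with no overlap between the groups.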
